A study of Homo sapiens with 12 samples.

Results

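The loss of GM-CSF changed gene expression in TF-1 cells with and without the GNB1 K89E mutant, and the comparison here is the difference between these responses. For each of 21996 genes it was the log2 change on withdrawal in K89E cells minus the log2 change on withdrawal in empty vector cells. It uses all 12 of the 12 arrays, in 4 groups of 3. TF-1 is a human erythroleukaemia line that needs GM-CSF or a related cytokine to grow. The K89E cells were stably transduced with pMSCVpuro-GNB1K89E and sampled 12 hours after GM-CSF withdrawal or kept in GM-CSF. The empty vector cells carried pMSCV-puro and were sampled in the same way, after withdrawal or with GM-CSF kept. The labels do not say whether either line was a clone or a pool, and there was no group with unmutated GNB1 in the vector, so an effect of the mutant and any other difference between both lines cannot be told apart. Where the labels call samples biological triplicates they do not say how the cultures were separated, so p-values measure the spread between these samples.

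GNB1 encodes a beta subunit of heterotrimeric G proteins. With a gamma subunit it forms a dimer that holds the alpha subunit in its resting state and, once released, signals to effectors such as phosphoinositide 3-kinases. The GM-CSF receptor signals through JAK2 to STAT5, and through the RAS-ERK and PI3K-AKT pathways, and its loss takes these signals away. The difference between responses addresses the question whether cells carrying the mutant react to the loss of the cytokine as cells without it do.

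The deposited table identifies genes by Ensembl ID only, and the reference used here does not pair these IDs with symbols. Genes are therefore given by ID, a few for each class of response, with no name or role. For the same reason the level of GNB1 and the markers of TF-1 cells or of other cell types were not analysed here. Array medians lay between 172.6 and 179.9 intensity units. Log2 levels of arrays of 1 group correlated at 0.996 to 0.999 across genes, which are not independent replicates. The arrays carry running numbers that go group by group, and whether this was an order of processing is not stated, so such an order cannot be told apart from the groups.

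The response to withdrawal differed between the lines in a small number of genes, by the test of the difference. Most of these fell in empty vector cells and fell less, or not at all, in K89E cells. Falls also made up 2572 of the 4492 genes called in empty vector cells. The difference was called for 15 genes, or 0.0682% of those tested, by limma with Benjamini-Hochberg adjustment. In 13 genes (0.0591%) it was positive and in 2 (0.00909%) negative. These counts were 12 and 0 with arrays centred on their medians, 8 and 0 with a replicate block, and 4 and 1 with 1 prior variance for all levels. All 15 were also called for withdrawal in empty vector cells, where 20.4% of all genes were called, against 17.9% in K89E cells. Since the difference and the empty vector response share 6 arrays, a gene called for the difference is also more likely to show a large empty vector change. Over all genes 11009 differences were positive and 10987 negative, and 1234 had an unadjusted p under 0.05. The count rests on single arrays. Of the K89E arrays, leaving out withdrawn replicate 1 or withdrawn replicate 3 left 0 calls, GM-CSF replicate 2 left 1 and GM-CSF replicate 3 left 8. Without K89E withdrawn replicate 2 or K89E GM-CSF replicate 1 there were still 13 calls. Of the empty vector arrays, leaving out GM-CSF replicate 2 or GM-CSF replicate 3 left 0 calls, GM-CSF replicate 1 left 9, and withdrawn replicates 1, 2 and 3 left 6, 5 and 6. The sign of each of the 15 differences was kept in all 20 refits with another setting or 1 array fewer.

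The 15 genes fall into 2 classes. In 11 the K89E response had the same sign as the empty vector response and was smaller, which is called blunted here. In 4 it had the opposite sign, which is called reversed. The class of called genes with a larger response of the same sign held 0 genes, and 0 genes were called for the difference without a call in empty vector cells. Among the blunted genes the K89E change was between 2.45% and 83.6% of the empty vector change on the log2 scale, with a median of 40.7%. Of the 11, 9 fell and 2 rose on withdrawal in empty vector cells, and 10 were also called for withdrawal in K89E cells.

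**Figure D1:**
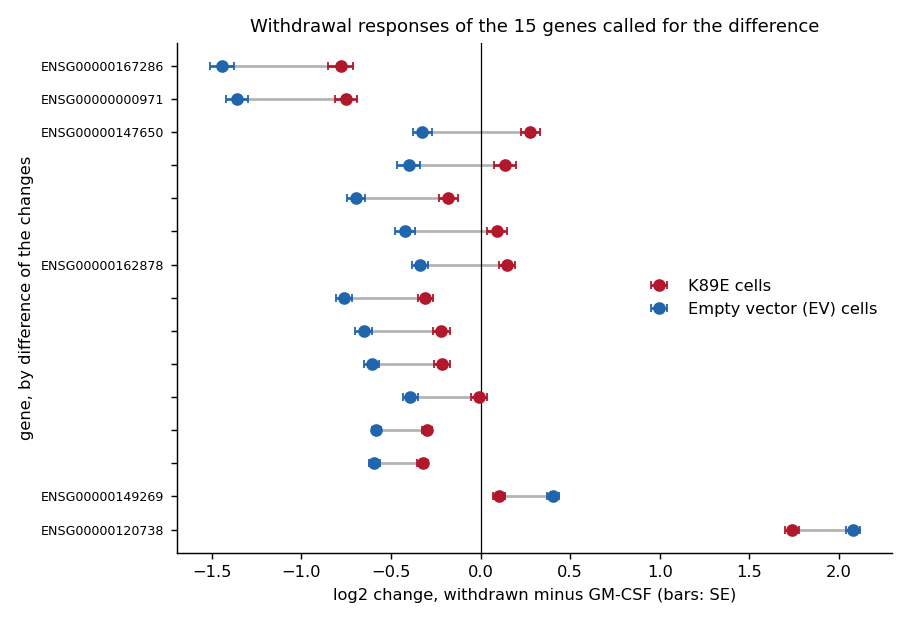
Log2 change on GM-CSF withdrawal in K89E cells (red) and empty vector cells (blue) for the 15 genes called for the difference, with bars for the SE and rows ordered by the difference. In the 2 lowest rows the changes are rises and smaller in K89E cells, in 9 rows they are falls and smaller in K89E cells, and in 4 rows the K89E change lies above 0 where the empty vector change lies below it.

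ENSG00000167286 had the largest difference among the genes called. Its intensities in K89E cells were 952, 868 and 963 after withdrawal, against 1713, 1514 and 1557 with GM-CSF. Empty vector cells gave 384, 426 and 374 after withdrawal, against 968, 1130 and 1126 with GM-CSF. The gene fell in both lines without overlap of the arrays, and the withdrawn K89E arrays stayed at more than double the withdrawn empty vector arrays. Its log2 change was -0.78 (SE 0.07) in K89E cells and -1.44 (SE 0.07) in empty vector cells. The difference was 0.66 (95% interval 0.45 to 0.87, limma adjusted p = 0.027), and the K89E change was 54.1% of the empty vector change. It was called in 4 of the 12 fits with 1 array left out, with limma adjusted p = 0.016 to 0.13. Its limma adjusted p was 0.17 with 1 prior variance for all levels.

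ENSG00000000971 behaved much the same. Its intensities in K89E cells were 964, 1020 and 962 after withdrawal, against 1581, 1814 and 1579 with GM-CSF. The empty vector arrays read 452, 479 and 536 after withdrawal, against 1244, 1235 and 1271 with GM-CSF. Withdrawn and GM-CSF arrays did not overlap in either line, and every withdrawn K89E array lay above every withdrawn empty vector array. The log2 change was -0.75 (SE 0.06) in K89E cells and -1.36 (SE 0.06) in empty vector cells, a difference of 0.61 (95% interval 0.42 to 0.79, limma adjusted p = 0.024). It too was called in 4 of the 12 fits with 1 array left out, with limma adjusted p = 0.012 to 0.12, and its limma adjusted p was likewise 0.17 with 1 prior variance for all levels.

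ENSG00000120738 had the larger of the 2 negative differences. Its intensities in K89E cells were 1523, 1491 and 1495 after withdrawal, against 445, 440 and 469 with GM-CSF. In empty vector cells they were 1604, 1577 and 1728 after withdrawal, against 391, 391 and 380 with GM-CSF. Withdrawal raised it 3.33-fold in K89E cells and 4.22-fold in empty vector cells, so most of the rise was present in both lines. The log2 difference was -0.34 (95% interval -0.46 to -0.22, limma adjusted p = 0.045). This call was lost in each of the 12 fits with 1 array left out, at limma adjusted p = 0.063 to 0.16.

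ENSG00000149269 had the other negative difference. Its intensities in K89E cells were 1469, 1533 and 1429 after withdrawal, against 1399, 1370 and 1355 with GM-CSF. Empty vector cells gave 1591, 1577 and 1612 after withdrawal, against 1248, 1201 and 1167 with GM-CSF. The rise was 1.07-fold in K89E cells and 1.32-fold in empty vector cells, and the arrays did not overlap in either line. Over all 15 genes they did not overlap for 13 in K89E cells and for all 15 in empty vector cells, against 31.8% and 35.7% of all genes. Most of this follows from the choice of genes, as all 15 were called for withdrawal in empty vector cells and most in K89E cells. The log2 difference of ENSG00000149269 was -0.30 (95% interval -0.40 to -0.20, limma adjusted p = 0.038). It was called in 2 of the 12 fits with 1 array left out, with limma adjusted p = 0.031 to 0.15.

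**Figure D2:**
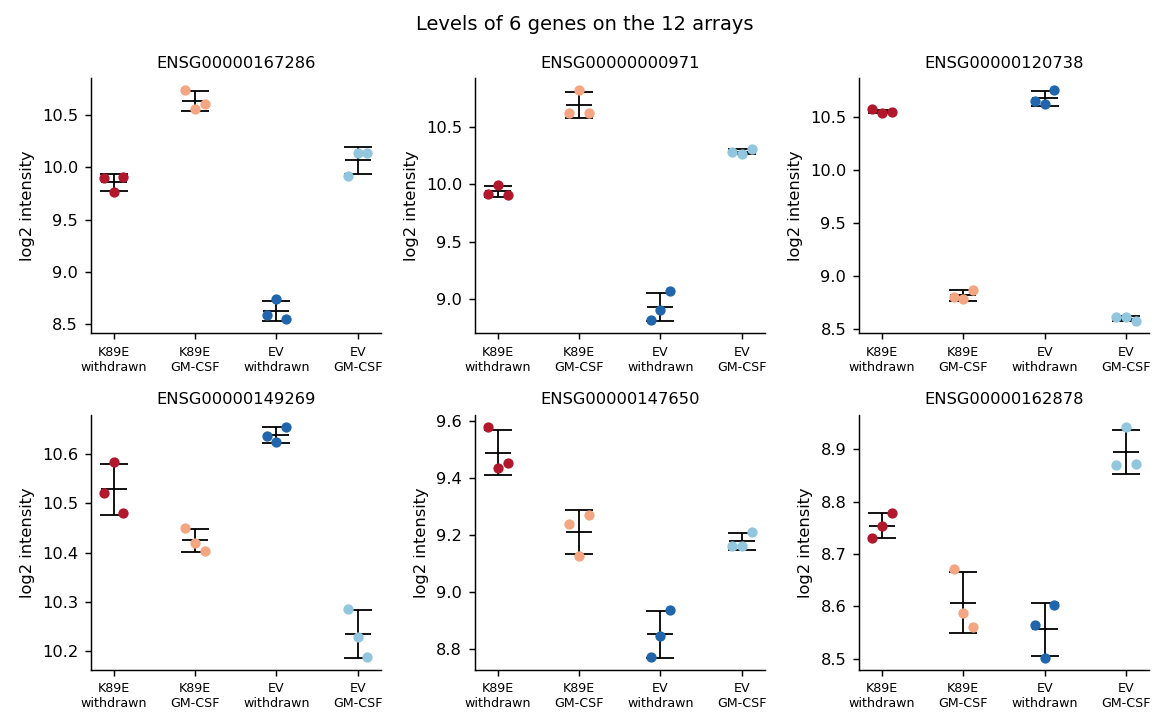
Log2 intensity of 6 genes on each of the 12 arrays (points), with the mean and SD of each group of 3 (black). The upper row and the first panel of the lower row show blunted responses. The last 2 panels show ENSG00000147650 and ENSG00000162878, in which withdrawn arrays lie above GM-CSF arrays in K89E cells and below them in empty vector cells.

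A reversal that passed all 3 tests, that of the difference and that of each line, was seen in 2 genes. ENSG00000147650 had intensities of 766, 692 and 700 in K89E cells after withdrawal, against 604, 559 and 618 with GM-CSF. The empty vector arrays read 437, 461 and 491 after withdrawal, against 572, 573 and 593 with GM-CSF. The lines started at nearly the same level with GM-CSF and moved apart. The log2 change was 0.28 (SE 0.05, limma adjusted p = 0.0023) in K89E cells and -0.33 (SE 0.05, limma adjusted p = 5.3e-04) in empty vector cells. The difference of 0.60 (95% interval 0.44 to 0.77) had a limma adjusted p of 0.015, and it was called in 7 of the 12 fits with 1 array left out.

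ENSG00000162878 had intensities of 425, 431 and 439 in K89E cells after withdrawal, against 408, 385 and 377 with GM-CSF. In empty vector cells they were 379, 362 and 389 after withdrawal, against 468, 492 and 468 with GM-CSF. Here the lines changed places, as K89E arrays lay below the empty vector arrays with GM-CSF and above them after withdrawal. The log2 change was 0.15 (SE 0.04, limma adjusted p = 0.033) in K89E cells and -0.34 (SE 0.04, limma adjusted p = 8.7e-05) in empty vector cells. The difference was 0.49 (95% interval 0.35 to 0.62, limma adjusted p = 0.015), called in 7 of the 12 fits with 1 array left out.

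In the other 2 reversed genes the K89E change was positive but was not called. Over the 4, the K89E change ran from 0.09 to 0.28 and the empty vector change from -0.42 to -0.33. In all, 6 genes were called for withdrawal in both lines in opposite directions, each with a rise in K89E cells and a fall in empty vector cells. The difference was called in 2 of these 6, and their K89E changes of 0.15 to 0.30 and empty vector changes of -0.34 to -0.17 were small.

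The 13 genes with a positive difference mostly lay further apart between the lines after withdrawal than with GM-CSF. The choice of genes favours this, as the line difference after withdrawal equals that with GM-CSF plus the tested difference. As a description of genes already chosen on these arrays, all 13 were called higher in K89E than in empty vector cells after withdrawal, where 6.52% of all genes were. Their log2 line difference was 0.20 to 1.23 there, with a median of 0.64. With GM-CSF kept, 8 of the 13 were called higher in K89E cells, where 5.21% of all genes were, and 1 was called lower. The median line difference was then 0.17, and 12 of the 13 had the smaller line difference with GM-CSF. The 2 genes with a negative difference ran the other way. They were higher in K89E cells with GM-CSF, by 0.19 and 0.22, and their line differences after withdrawal were -0.11 for ENSG00000149269 (limma adjusted p = 0.047) and -0.12 for ENSG00000120738, which was not called (limma adjusted p = 0.062).

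The 5 called genes nearest the threshold had absolute log2 differences of 0.27 to 0.54 and limma adjusted p-values of 0.038 to 0.045. The 10 genes just outside it had absolute differences of 0.23 to 0.56 and adjusted p-values of 0.079 to 0.12. The sizes on each side overlapped. Among the 15 called genes, 3 differences reached 1.5-fold and 0 reached 2-fold.

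A response was counted as kept where it was called in both lines in the same direction, the difference was not called, and the 95% interval of the difference lay within 50% of the empty vector change. By this rule 386 responses were kept, 166 rises and 220 falls, which is 8.59% of the 4492 responses called in empty vector cells and 1.75% of all genes. The number rests on the bound chosen, as it was 1379 with a bound of 75%, and it was 248 with 1 prior variance for all levels. Kept does not mean equal. The K89E change of these genes was 69.8% to 120% of the empty vector change, with a median of 94.0%, and was the smaller one in 296 genes and the larger one in 90. In 23 of the 386 genes the interval of the difference excluded 0 without adjustment. This was a share similar to that over all genes, 1234 of 21996. All 23 had the smaller change in K89E cells. Choosing genes by their empty vector change itself favours a smaller K89E change.

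By size of the empty vector change, the largest kept rise was that of ENSG00000129538. Its intensities in K89E cells were 1358, 1655 and 1641 after withdrawal, against 745, 854 and 811 with GM-CSF. Empty vector cells gave 2450, 2451 and 2761 after withdrawal, against 1054, 946 and 1055 with GM-CSF. It rose 1.93-fold in K89E cells and 2.51-fold in empty vector cells, and its level was lower in K89E cells under both conditions. Its log2 difference was -0.38 (95% interval -0.61 to -0.15, limma adjusted p = 0.49), so it is one of the 23. It was kept only in the sense that the interval stayed within 50% of the empty vector rise. Its K89E change was 71.3% of the empty vector change, against 83.6% for the blunted ENSG00000120738, whose interval stayed within 22.2%. ENSG00000120738 thus missed the kept class by its call alone, and blunted does not mean a larger loss than kept.

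ENSG00000173930 rose almost equally. Its intensities in K89E cells were 490, 477 and 564 after withdrawal, against 214, 216 and 232 with GM-CSF. The empty vector arrays read 677, 557 and 719 after withdrawal, against 287, 243 and 286 with GM-CSF. It rose 2.31-fold in K89E cells and 2.39-fold in empty vector cells. Its mean level was lower in the mutant line under both conditions, but the withdrawn arrays of the lines overlapped. With GM-CSF the line difference was not called (limma adjusted p = 0.062). The log2 difference was -0.05 (95% interval -0.33 to 0.23, limma adjusted p = 1).

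By the same measure the largest kept falls were those of ENSG00000165272 and ENSG00000111424. ENSG00000165272 had intensities of 773, 772 and 700 in K89E cells after withdrawal, against 1690, 1656 and 1610 with GM-CSF. In empty vector cells they were 473, 542 and 528 after withdrawal, against 1311, 1441 and 1421 with GM-CSF. The K89E change was 79.6% of the empty vector change, with a log2 difference of 0.29 (95% interval 0.13 to 0.46, limma adjusted p = 0.43). ENSG00000111424 had intensities of 287, 256 and 278 in K89E cells after withdrawal, against 590, 545 and 556 with GM-CSF. Empty vector cells gave 165, 187 and 178 after withdrawal, against 391, 446 and 451 with GM-CSF. Its K89E change was 81.6% of the empty vector change, with a log2 difference of 0.24 (95% interval 0.03 to 0.44, limma adjusted p = 0.83). The intervals of ENSG00000165272 and ENSG00000111424 exclude 0, so both are also among the 23.

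**Figure D3:**
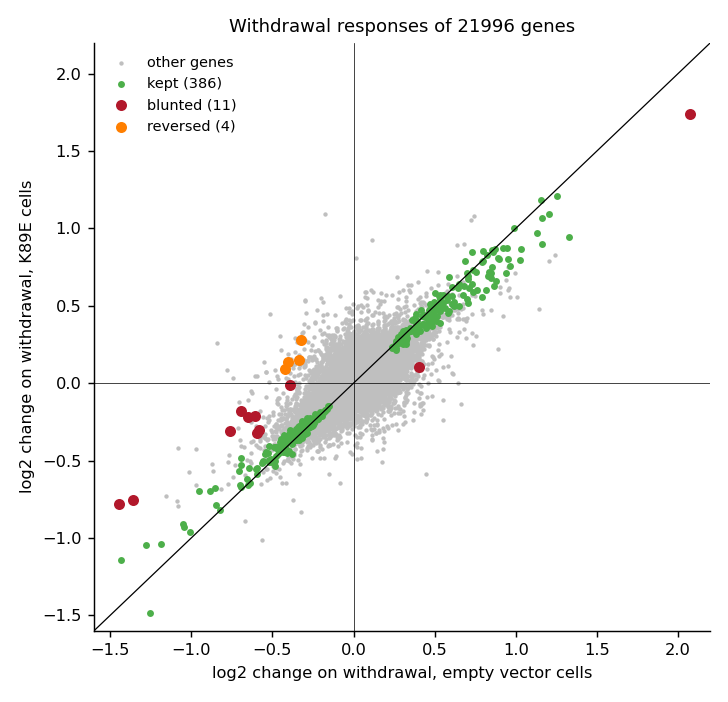
Log2 change on withdrawal in K89E cells (vertical) against empty vector cells (horizontal) for 21996 genes, with the line of equal change. The 386 kept responses (green) lie along the line, the 11 blunted responses (red) between it and the horizontal axis, and the 4 reversed ones (orange) above 0 where the empty vector change is below 0.

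For the other 4091 responses called in empty vector cells, or 91.1%, the arrays did not settle whether they were kept, at the bound of 50%, or changed. Of these, 2536 were also called in K89E cells in the same direction, 4 were called in the opposite direction and 1551 were not called. Among the 1551, the K89E change had the same sign in 1422 and the opposite sign in 129. The absolute empty vector change of the 4091 had a median of 0.22 on the log2 scale. The median half-width of the 95% interval of a difference was 0.20 over all genes and 0.15 over genes called on the mean of both responses. To be kept, the whole interval had to lie within 50% of the empty vector change. Whether responses differed was also not settled for the 999 genes called in K89E but not in empty vector cells. The change had the same sign in both lines in 906 of them, and the difference was called in 0.

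To describe direction without choosing genes by one line, genes were also ranked on the mean of both responses. In a balanced design with equal spread in both lines this mean is independent of their difference. The spread was not quite equal, by the mean variance over genes called on the mean of both responses. It was 0.00734 and 0.00614 in withdrawn and GM-CSF arrays of K89E cells, and 0.00726 and 0.00409 in those of empty vector cells. The mean response was called for 6450 genes (29.3%), of which 3797 (58.9%) changed less in K89E cells and 2653 more. The share with the smaller K89E change was 56.1% of 4930 genes with a mean response under 1.2-fold, 66.8% of 1389 genes between 1.2-fold and 1.5-fold, 79.3% of 116 genes between 1.5-fold and 2-fold, and 86.7% of 15 genes at 2-fold or more. Among the 131 genes from 1.5-fold upward it was 67 of 87 rises and 38 of 44 falls. In the 15546 genes with no call it was 49.0%. Genes are not independent replicates, so these shares are given without a test.

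The same genes were summed into a score for each array, the mean log2 level of the 131 genes relative to all arrays, with the sign of the genes that fell turned. It was 0.25, 0.36 and 0.31 on withdrawn K89E arrays, against -0.42, -0.40 and -0.43 on K89E arrays with GM-CSF. It was 0.51, 0.44 and 0.51 on withdrawn empty vector arrays, against -0.33, -0.41 and -0.39 on empty vector arrays with GM-CSF. All withdrawn K89E arrays lay below all withdrawn empty vector arrays, while the GM-CSF arrays of the lines overlapped. The score over all 6450 genes with a called mean response did not separate the withdrawn arrays. It was 0.094, 0.117 and 0.095 on withdrawn K89E arrays, against 0.125, 0.105 and 0.110 on withdrawn empty vector arrays, and it changed by 0.204 in K89E cells and by 0.226 in empty vector cells. The score over the 131 genes changed by 0.72 in K89E cells and by 0.86 in empty vector cells, a difference of -0.14. The largest SD between arrays within a group was 0.053, which is not the error of that difference. The difference was -0.16 to -0.095 with 1 array left out. Quantile normalization gave -0.13 and centring on array medians -0.12.

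**Figure D4:**
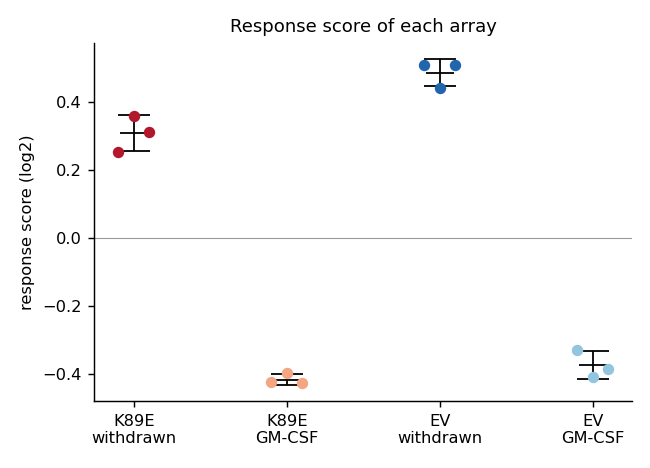
Response score of each array (points, log2 scale), the mean over the 131 genes whose mean response was called and at least 1.5-fold, with the mean and SD of each group of 3 (black). Withdrawn K89E arrays lie at 0.25 to 0.36 and withdrawn empty vector arrays at 0.44 to 0.51, and GM-CSF arrays at -0.43 to -0.40 in K89E and at -0.41 to -0.33 in empty vector cells.

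Bright genes carried the calls. Of the 15 genes called for the difference, 11 lay in the top one of 4 level classes of equal size and 4 in the next class. The median half-width of the 95% interval of the difference was 0.12 in the brightest class and 0.24 in the dimmest. Kept responses numbered 298 in the brightest, 83 in the next, 5 in the third and 0 in the dimmest class, so dim genes could hardly be assigned to either kind of response at this precision.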

How the data were processed

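Total RNA from biological triplicates was labelled as biotinylated cRNA, per the labels' protocols. The deposited intensity values were normalized by the authors with RMA, per the submitters' processing notes, and stand on a linear scale. The array type, probe set definitions, genome build and any batch were not given in the sources used here. Precision is limited by the number of arrays.

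No pseudocount was added before taking log2. One mean per group was fitted to all 12 arrays with limma 3.58.1 in R 4.3.3, letting the prior variance follow the mean level. All tests were 2-sided, with Benjamini-Hochberg adjustment over all 21996 genes and a call at an adjusted p under 0.05. The procedure was also run on simulated data, with noise drawn independently for each gene and array. The outcome of that run is not given here, and no result above rests on it.

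The reference table holds an Ensembl ID in 0 of 59792 rows, so 0 IDs were named, and GNB1, the cell type markers, the pathway lists and promoter sequences were not analysed here. At most 2 IDs per direction were printed for each class, ranked by size of the difference, or by size of the empty vector change among kept responses. For reversals the 2 IDs called in all 3 tests were taken. The classes, lists and members were chosen with earlier results of these data known. Alternatives changed the prior variance, dim-gene filter, normalization, weights, pseudocount, the bound on kept responses and the arrays used, and added a replicate block. Between groups, the deviations from group means of arrays with equal replicate numbers had correlations of -0.201 to 0.233. Arrays with other numbers had -0.210 to 0.200, much the same range, so the numbers were not taken to pair arrays.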

Additional observations from a re-analysis of the deposited data

Results flagged for a closer look

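The withdrawal response differed between the lines, by the test of the difference itself, in 15 genes. The log2 differences, K89E response minus empty vector response, were 0.66 for ENSG00000167286, 0.61 for ENSG00000000971, 0.60 for ENSG00000147650, 0.49 for ENSG00000162878, -0.34 for ENSG00000120738 and -0.30 for ENSG00000149269. Among the alternatives run, ENSG00000147650 and ENSG00000162878 were called in 15 of 20, ENSG00000000971 in 11, ENSG00000167286 in 10, ENSG00000149269 in 7 and ENSG00000120738 in 5.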

How the results depend on the processing

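The choice of genes by the mean response and the array score were added after the data were seen. Limits are the 3 arrays a group, the missing gene names and the unknown array type and batches. With 1 prior variance for all levels the difference was called for 5 genes (4 positive, 1 negative), of which 4 were among the 15. With the replicate block it was called for 8 (8 positive, 0 negative), of which 7 were among them. When arrays were centred on their medians, 12 differences were positive and 0 negative, and array weights gave 21 calls. Without 1 array the calls numbered 0 to 13, with 0 to 12 positive and 0 to 2 negative. These fits hold fewer arrays. Kept responses numbered 248 with 1 prior variance for all levels, 281 to 364 without 1 array, and 1379 with the bound at 75% of the empty vector change, which by construction takes in more genes. Where no construction is named, the cause of a change was not tested. Counts for withdrawal in either line and for the mean response stayed within 1.5 times under all alternatives. That band is too wide to judge how the mean response splits into smaller and larger K89E changes. The split was 3797 against 2653 in the main fit. It was 3406 against 2972 without K89E withdrawn replicate 3, and 3731 against 2125 without empty vector GM-CSF replicate 1. Smaller K89E changes were the more frequent ones in each alternative. Of the named genes, the block ended the calls of ENSG00000167286, ENSG00000120738 and ENSG00000149269 (limma adjusted p = 0.066 each) and changed no other. The uncalled difference of ENSG00000173930 ran from -0.16 to 0.08 over the alternatives, and no called difference changed sign.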
